A study of Saccharomyces cerevisiae with 56 samples.

Results

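The segregants with the most and with the least HAP1 transcript were compared across all other genes. The 44 segregants were ranked by the log2 intensity of HAP1, and the 15 highest (high HAP1) were set against the 15 lowest (low HAP1), so that 30 of the 56 arrays entered the comparison and the 14 segregants between the groups were kept apart. The segregants are haploid offspring of a cross between 59A, a derivative of the commercial wine yeast EC1118, and the laboratory strain S288C. Each segregant was represented by 1 culture and 1 array. Each parent had 2 biological replicates, called extracts below, with 3 technical arrays each. All strains, parents included, fermented 1 synthetic grape must, of pH 3.3 and 425 mg/L of nitrogen, supplemented with p-aminobenzoic acid and iron chloride, and cells were taken in stationary phase at 66 g/L of CO2 released, that is at 70% of the fermentation. The groups were made from measured HAP1 levels and not from genotypes, and the alleles of HAP1 in the segregants were not analysed here. The study, which genotyped the segregants, reports that the HAP1 level is linked to the region of HAP1 itself.

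HAP1 encodes a zinc cluster transcription factor that senses heme. When heme, and therefore oxygen, is available it activates genes of respiration, of sterol synthesis and of the defence against oxidants, and it acts in part through ROX1, the repressor of hypoxic genes. S288C is known to carry a Ty1 element at the end of the HAP1 reading frame, which weakens the factor, whereas wine yeasts carry an uninterrupted gene. Sterol synthesis needs oxygen and heme at several steps, so in wine fermentation, which is nearly anaerobic, the transcripts of this pathway and of the hypoxic cell wall proteins are commonly read as signs of oxygen and sterol supply.

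The members were chosen by their HAP1 values, which are therefore given as a description. In the high group HAP1 ran from 12.20 to 12.92 with a median of 12.69, and in the low group from 10.61 to 11.74 with a median of 11.31. The 14 segregants between them ran from 11.74 to 12.11 with a median of 11.93. The values formed 1 continuous series, with no gap at either limit. The lowest member of the high group had 12.1969 and the next segregant 12.112, and the highest member of the low group had 11.7382 and the next segregant 11.7422. In the parents, whose arrays the ranking did not use, the extracts had 13.19 and 13.42 in S288C and 11.45 and 11.67 in 59A. HAP1 was thus 1.75 higher on the log2 scale in S288C (SE 0.12, adjusted p = 0.000182, 2 extracts against 2), a 3.37-fold difference with no overlap. Both extracts of S288C lay above every segregant, and both extracts of 59A lay within the range of the low group. Whether the array probe reads both alleles of HAP1 alike was not tested.

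**Figure D1:**
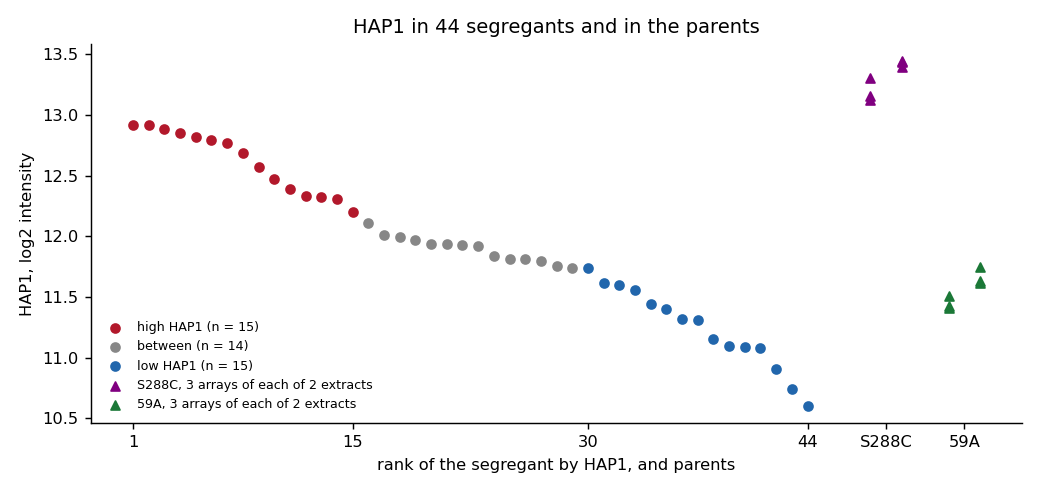
HAP1 log2 intensity (vertical axis) of the 44 segregants in order of rank, with the 15 high, 14 intermediate and 15 low segregants in different colours, and of the parents, with 1 triangle for each technical array in a column for each extract. The segregants form a continuous series from 12.92 to 10.61, below the arrays of S288C.

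The arrays of the groups differed in 2 respects besides HAP1. The sample titles hold 7 codes with 8 arrays each, which were read here as slides and numbered from 1 to 7. The titles themselves do not call them slides. Of these 7 slides, 6 held members of both groups, while slide 6 held 3 high and no low segregants. The numbers were also uneven on slide 2 (2 high and 4 low), slide 3 (1 and 4) and slide 5 (3 and 1). The mean level of 170 genes of the left arm of chromosome 16, distal to SSU1, fell into separate ranges, with 31 segregants up to 8.64 and 13 from 9.20 upwards on the log2 scale. 8 of the 15 low, 3 of the 14 intermediate and 2 of the 15 high segregants had the raised level. The study reports, from genomic DNA, that some segregants carry a duplication of this arm, and that many transcripts elsewhere differ in them. Copy number was not measured here. Segregant 7a had 8.545, in the lower range, and 7b had 9.277, in the raised one. The study shows the former as a carrier, and the cause of this mismatch was not tested. Of the 133 genes of this arm that were tested, 123 had the lower mean in the high group and 4 passed an adjusted p of 0.05, with a median difference of -0.27 against 0.01 over all genes and probes tested. Mating type was balanced, since the a-type genes exceeded the alpha-type genes in 8 of the 15 segregants of each group. The part of slide and of the chromosome 16 arm in the results was not tested directly, and the counts with each of them in the fit are given with the results.

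The comparison asked which transcripts differed between segregants of high and of low HAP1, elsewhere in the genome and on the right arm of chromosome 12, where HAP1 lies and where neighbouring genes are inherited with it. Of 5161 genes and unnamed probes tested, 19 passed an adjusted p of 0.01 (0.368%), 14 of them higher (0.271%) and 5 lower (0.0969%) in the high group. Outside the arm 12 genes rose (0.301%) and 3 fell (0.0752%) in the high group (15 of 3989, 0.376%), on the arm 2 of 308 genes rose (0.649%), and 2 of 864 unnamed probes fell (0.231%). At an adjusted p of 0.05 there were 91 (1.76%), 50 higher (0.969%) and 41 lower (0.794%), and 834 had an unadjusted p under 0.05 (16.2%). The values of the groups overlapped for every gene, so that 0 of 5161 separated the groups (0%). All 19 kept their sign within each of the 6 slides that held both groups. This is a description and not a replication, since the 19 were chosen on these same arrays. Slides 1 and 3 also held only 1 high segregant, and slide 5 only 1 low one. With slide as a block 7 were called at 0.01, all among the 19: LSB6, WAR1, QDR2, SNU114, PIG1 and both unnamed probes. With the level of the chromosome 16 arm as a covariate 8 were called, 6 of them among the 19, and among the 20 segregants without the raised arm, 13 high against 7 low, SNU114 and probe A_06_P4862 were the 2 called. Without 9c and 13b, the segregants with the most missing values, and with ranks taken anew, 9 were called, 7 of them among the 19, and without the segregants of slide 6 there were 10, 9 of them among the 19. Without 19c and 20a, and with ranks taken anew, 19 were called, 13 of them among the 19, while HMG1, ERG12, ERG9, DET1, SMD2 and UTR5 did not pass 0.01. Since 20a was an intermediate segregant, this fit differed from the main one only by 5a in place of 19c in the high group. All 19 kept their sign in these fits, which mostly used the arrays on which the 19 were chosen.

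Genes of drug export and of its regulation held the largest rise. QDR2, a plasma membrane exporter of drugs, ran from 6.60 to 11.49 in the high group with a median of 9.70, and from 6.34 to 8.11 in the low group with a median of 7.38. 13 of the 15 high segregants lay above the highest low one, and the exceptions were 22b at 7.98 and 21c at 6.60. QDR2 was 2.05 higher in the high group (SE 0.30, adjusted p = 0.000187), a 4.15-fold difference, and 1.39 higher in S288C than in 59A. WAR1, the zinc cluster activator of the response to weak acids, ran from 7.52 to 8.54 with a median of 8.20 in the high group and from 7.12 to 8.00 with a median of 7.33 in the low group. 11 high segregants exceeded every low one, and the difference was 0.71 (SE 0.10, adjusted p = 0.000184). STB5, another zinc cluster activator with a part in multidrug resistance, had 7.08 ± 0.25 in the high and 6.62 ± 0.25 in the low group (SD, n = 15 each), a rise of 0.46 (SE 0.09, adjusted p = 0.00632).

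Of 22 tested genes of drug and weak acid export, QDR2 rose at an adjusted p of 0.01, and TPO5, which encodes a polyamine exporter, was added at 0.05 with 0.49 (SE 0.11, adjusted p = 0.0143). None fell at either limit. Over all genes tested 0.271% were higher at 0.01 and 0.969% at 0.05. The median difference of the list was 0.09, beside 0.01 over all genes tested. The other exporters with the smallest p were YOR1 at 0.47 (adjusted p = 0.098), TPO1 at 0.65 (adjusted p = 0.242) and QDR1, the neighbour of QDR2, at 0.43 (adjusted p = 0.302). PDR12, the exporter that WAR1 is known to activate, differed by 0.69 with an SE of 0.40 (adjusted p = 0.399), and was 1.61 lower in S288C than in 59A. Of 4 zinc cluster regulators of drug resistance tested, WAR1 and STB5 rose at 0.01, beside 0.271% of all genes tested, and the other two did not pass. With missing values allowed 10 of these regulators were tested, the number called was again 2, and the median difference was 0.01 in place of 0.19.

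PDR8, a zinc cluster regulator of drug resistance that lies close to HAP1 on the arm, lacked a value in 1 low segregant and was tested only with missing values allowed. It ran from 7.06 to 7.85 with a median of 7.49 in the 15 high segregants and from 7.10 to 7.84 with a median of 7.50 in 14 low ones. The ranges were nearly the same, and the difference was -0.06 with an SE of 0.08 (adjusted p = 0.779). The intermediate segregants reached 8.61. From other arrays the study reports that QDR2 and YLR179C rose when the PDR8 allele alone was replaced, and concludes that PDR8 controls both. The PDR8 levels above do not measure an effect of its allele. The alleles of PDR8 in the segregants were not analysed here, and the part of PDR8 in the rise of QDR2 was not tested. Of the other genes that the study tested with a replaced PDR8 allele on other arrays, besides QDR2 and QDR1 above, GIT1, a permease of glycerophosphoinositol, differed by 0.21 (adjusted p = 0.717), and YLR179C, tested only with missing values allowed, by 0.58 with an SE of 0.36 (adjusted p = 0.433).

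LSB6, which encodes a phosphatidylinositol 4-kinase, had the smallest adjusted p. It ran from 6.91 to 8.61 with a median of 7.91 in the high group, and from 6.52 to 7.21 with a median of 6.93 in the low group. All high segregants but 21c lay above the highest low one. The difference was 1.01 (SE 0.13, adjusted p = 0.00011), and in the parents it was 0.96 in the same direction. SNU114, a GTPase of the U5 particle of the spliceosome, ran from 7.00 to 7.99 with a median of 7.68 in the high group and from 6.74 to 8.02 with a median of 6.97 in the low group. All 15 high segregants exceeded the median of the low group, and 14a, at 8.02, stood apart from the other low segregants, the next of which, 6d, had 7.25. The rise was 0.61 (SE 0.10, adjusted p = 0.00105).

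The other genes that rose outside the arm were of several kinds. GUT2, the mitochondrial glycerol 3-phosphate dehydrogenase, ran from 7.61 to 9.81 in the high and from 6.68 to 8.74 in the low group, with medians of 8.66 and 7.39, and rose by 1.07 (SE 0.22, adjusted p = 0.00821). LST4, which acts in the sorting of amino acid permeases, ran from 7.28 to 9.01 and from 7.08 to 8.37, with medians of 8.51 and 7.35, and rose by 0.90 (SE 0.17, adjusted p = 0.00391). The groups overlapped for both genes. YME2, an inner membrane protein of mitochondria, rose by 0.72, ISA1, which acts in iron-sulfur cluster assembly, by 0.47, and DET1, an acid phosphatase linked to sterol transport, by 0.42. UTR5, of unknown function, rose by 0.62, but all 15 low segregants and 9 of the 15 high ones lay below a log2 of 6.3, taken here as the limit of background, so that only a difference of at least 1.03-fold was measured. TIM13, a chaperone of the mitochondrial intermembrane space, was the gene outside sterol synthesis that fell, from 8.60 ± 0.25 in the low to 7.98 ± 0.40 in the high group (SD, n = 15 each, a difference of -0.62, adjusted p = 0.00632).

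Some of these genes were neighbours in the reference gene order. WAR1 and HMG1 are adjacent on chromosome 13, and SNU114 is adjacent to TPO5, which lies 2 genes from LST4. At an adjusted p of 0.05, SAP185, which lies 2 genes from LSB6, rose by 0.40 (SE 0.10, adjusted p = 0.0324). Near GUT2 the directions differed, since COA1, 3 genes away, fell by 0.56 (SE 0.15, adjusted p = 0.0436).

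The unnamed probes that fell were among those with the smallest adjusted p. Probe A_06_P4862 ran from 7.03 to 8.08 with a median of 7.56 in the high group, and from 7.57 to 9.40 with a median of 8.37 in the low group. 14a, at 7.57, was the only low segregant within the range of the high ones, and the difference was -0.84 (SE 0.12, adjusted p = 0.000184). Probe A_06_P5069 ran from 5.50 to 6.55 with a median of 5.68 in the high group and from 5.92 to 7.74 with a median of 6.77 in the low group. It lay below the limit of background in 14 of the 15 high segregants and in 4 of the 15 low ones, and in both extracts of S288C at 5.63 and 5.67. The difference of the deposited values was -1.01 (SE 0.16, adjusted p = 0.000482), with the high level mostly not measured above background. With values below 6.3 set to 6.3 it was -0.48 (adjusted p = 0.0406), and 17 of the 19 were then called, without this probe and UTR5.

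**Figure D2:**
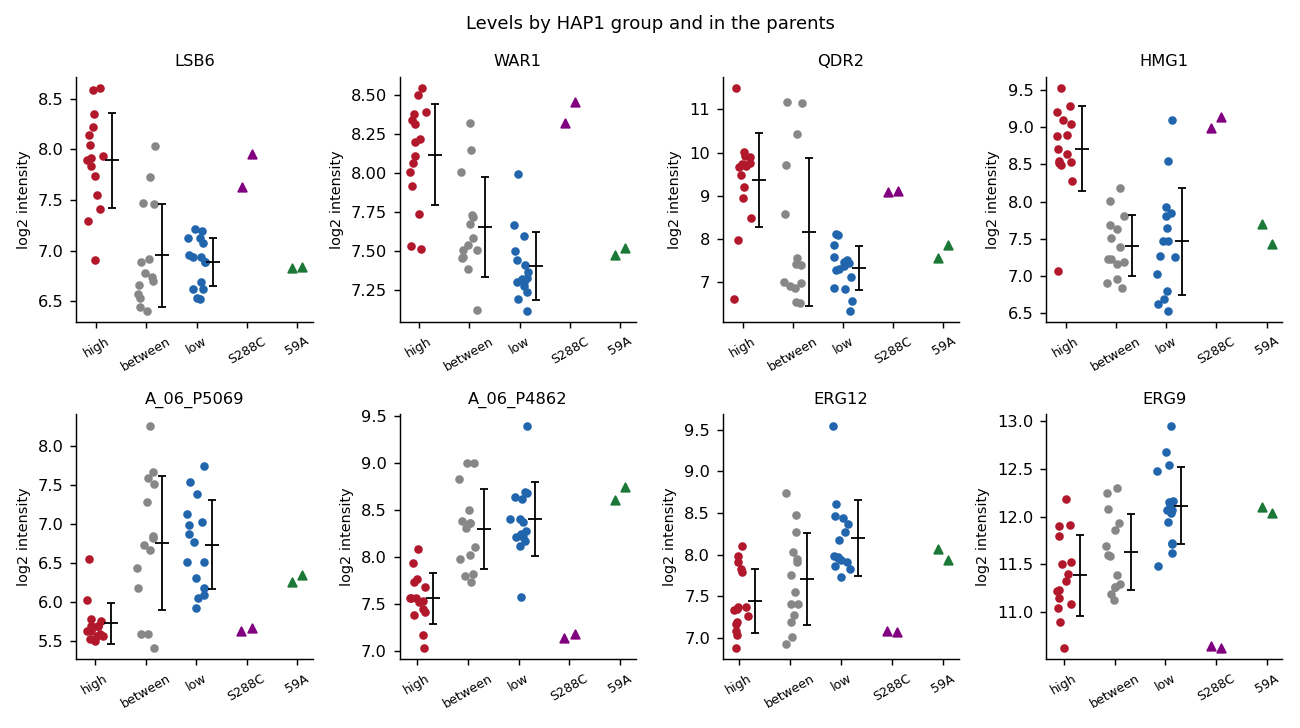
Log2 intensity (vertical axes) of 8 called genes and probes in the segregants of high, intermediate and low HAP1, 1 point for each segregant with the mean and SD beside it, and in the 2 extracts of each parent as triangles. For all 8 the high group is shifted to the same side of the low group as S288C is of 59A, and the groups overlap.

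The mevalonate and ergosterol pathway moved in both directions. Of its 21 tested genes, HMG1 rose and ERG12 and ERG9 fell at an adjusted p of 0.01, and at 0.05 there were 2 higher (HMG1 and ERG4) and 8 lower. Over all genes tested 0.271% were higher and 0.0969% lower at 0.01, and 0.969% and 0.794% at 0.05. The median difference was -0.12, beside 0.01 over all genes tested. With missing values allowed 24 genes were tested, 8 with the higher and 16 with the lower mean, and the median was -0.45. At 0.05 there were then 2 higher and 10 lower, with ERG2 (-1.04) and ERG27 (-0.715) among the lower. HMG2, also tested only in this way, differed by -0.20 (adjusted p = 0.502). HMG1, the HMG-CoA reductase that commits carbon to the pathway, ran from 7.06 to 9.53 with a median of 8.70 in the high group and from 6.53 to 9.10 with a median of 7.47 in the low group. All but 1 of the high segregants, 21c, lay above 8.2, while 7a and 10b of the low group reached 9.10 and 8.55. The rise was 1.25 (SE 0.23, adjusted p = 0.00391).

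Other called steps of the pathway, ERG4 apart, ran the other way from HMG1. ERG12, mevalonate kinase, ran from 6.88 to 8.11 with a median of 7.35 in the high group and from 7.73 to 9.55 with a median of 7.99 in the low group, and fell by 0.76 (SE 0.15, adjusted p = 0.00632). ERG9, squalene synthase, ran from 10.62 to 12.18 and from 11.48 to 12.96, with medians of 11.33 and 12.07, and fell by 0.73 (SE 0.15, adjusted p = 0.00841). 10 high segregants had less ERG12, and 9 less ERG9, than any low one. At an adjusted p of 0.05, MVD1, mevalonate pyrophosphate decarboxylase, fell by 1.34 (SE 0.29), ERG13, HMG-CoA synthase, by 1.28 (SE 0.27) and ERG20, farnesyl pyrophosphate synthase, by 0.81 (SE 0.21). Of the later steps ERG6, the C-24 methyltransferase, fell by 1.25 (SE 0.27), ERG26, the C-3 dehydrogenase, by 0.96 (SE 0.23) and ERG28, a scaffold of the demethylation complex, by 0.70 (SE 0.16). ERG4, the reductase of the last step, rose by 0.69 (SE 0.16).

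The remaining 11 genes of the pathway did not pass. ERG11, the heme-containing lanosterol demethylase, differed by -0.12 (SE 0.17, adjusted p = 0.759), ERG1, squalene epoxidase, by 0.20 (adjusted p = 0.728), and ERG3, the C-5 desaturase, by 0.38 (adjusted p = 0.383). In the parents the pathway had 1 gene called higher and 10 called lower in S288C. Of the 21 genes, those that passed 0.05 in the segregants were also called in the parents, except ERG6 and ERG4. ERG6 differed by 0.04 between the parents (adjusted p = 0.823). ERG4 was 0.40 higher in S288C, under the limit of 0.7. These counts changed with the terms in the fit. With slide as a block 0 genes of the pathway passed 0.01, and at 0.05 there were 2 higher and 0 lower; with the chromosome 16 arm as a covariate 0 passed 0.01, and at 0.05 there were 1 higher and 3 lower. ERG12 then differed by -0.72 (adjusted p = 0.0843) with the block and by -0.74 (adjusted p = 0.0309) with the covariate, against -0.76. ERG9 differed by -0.47 (adjusted p = 0.227) and by -0.63 (adjusted p = 0.0643), against -0.73. Without 19c and 20a, HMG1, ERG12 and ERG9 had differences of 1.16, -0.72 and -0.67 and did not pass 0.01 (adjusted p = 0.0109, 0.0172 and 0.0227).

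**Figure D3:**
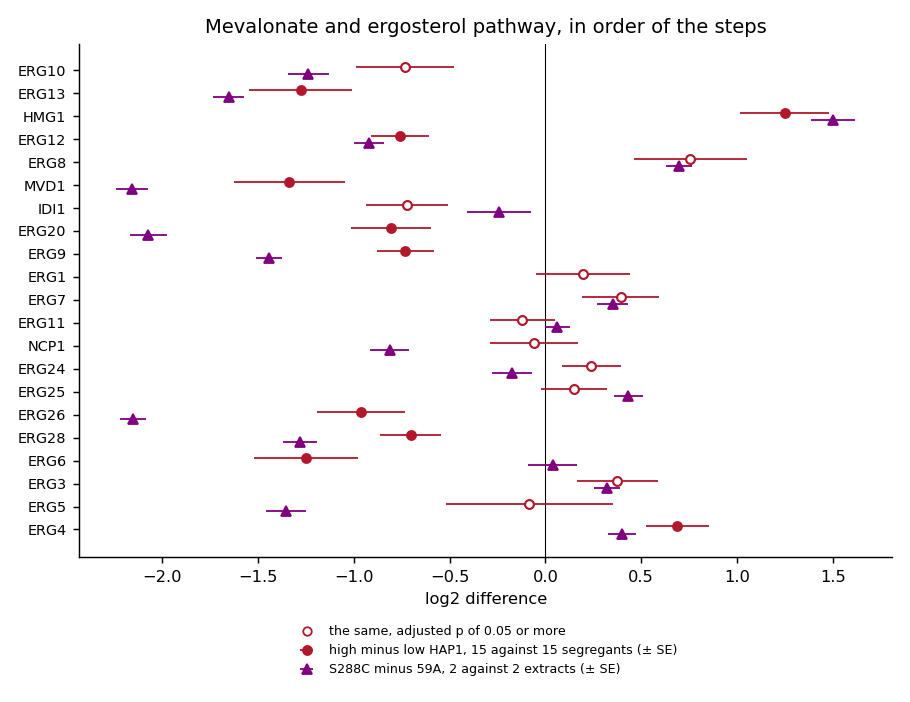
Log2 difference (horizontal axis) of the 21 tested genes of the mevalonate and ergosterol pathway, in order of the steps, between the HAP1 groups (circles, ± SE, open where the adjusted p was 0.05 or more) and between the parents (triangles, ± SE; ERG1 had no value for the parents). HMG1 lies at 1.25 on the right, and ERG13, ERG12 and MVD1, the steps next to it that passed 0.05, lie on the left.

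Known targets of Hap1 mostly did not pass the test. The segregants were ranked by HAP1 transcript, and the activity of the Hap1 protein was not measured. The transcript was higher in S288C, the parent known to carry the weakened factor. Of 12 genes of aerobic growth that are known to need Hap1, HMG1 was the 1 that passed at either limit, beside 0.368% of all genes tested at 0.01 and 1.76% at 0.05. Of the 12, 6 had the higher and 6 the lower mean in the high group, with a median difference of -0.06. At an unadjusted p under 0.05 in limma, 2 of the 12 were higher, HMG1 among them, and 0 lower. Over all 5161 genes and probes tested these counts were 428 and 406. CYC1, the main cytochrome c gene and a classic target, differed by -0.26 with an SE of 0.37 (adjusted p = 0.755), CTT1, cytosolic catalase, by 0.71 with an SE of 0.50 (adjusted p = 0.502), and CYB2, lactate dehydrogenase, by 0.52 with an SE of 0.34 (adjusted p = 0.459). YHB1, flavohemoglobin, differed by -0.64 with an SE of 0.32 (adjusted p = 0.323). Differences of this size could not be told from the spread between segregants, which for CTT1 leaves room for a change of either sign.

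Hypoxic genes had lower means in the high group without passing 0.01. All 12 tested members had the lower mean, with a median difference of -0.59, 0 passed an adjusted p of 0.01 in limma, 6 had an unadjusted p under 0.05, and HEM13 was the 1 that passed 0.05. Over all 5161 genes and probes tested 2398 had the lower mean, 406 were lower at an unadjusted p under 0.05 and 0.794% were lower at an adjusted p of 0.05. HEM13, the oxygen-requiring coproporphyrinogen oxidase of heme synthesis, ran from 9.48 to 13.23 in the high and from 10.76 to 14.32 in the low group. The ranges overlapped widely, and HEM13 fell by 1.23 (SE 0.33, adjusted p = 0.0484). In the cell wall mannoprotein genes the differences were -0.96 for TIR2 (adjusted p = 0.213) and -0.69 for TIR4 (adjusted p = 0.0742), and AAC3, the hypoxic ADP/ATP carrier, differed by -0.84 (adjusted p = 0.102). In the parents 8 of these genes were called lower in S288C and 0 higher. With slide as a block 11 of 12 had the lower mean and 0 passed 0.05, and the same counts were found with the chromosome 16 arm as a covariate.

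None of 11 regulators of the oxygen and heme response passed 0.05. SPT23, an activator of fatty acid desaturation, came closest at 0.36 (SE 0.10, adjusted p = 0.0584). UPC2 and ECM22, the sterol-responsive activators of the ERG genes, differed by -0.41 (adjusted p = 0.226) and -0.24 (adjusted p = 0.293), and MOT3, a repressor of hypoxic genes, by 0.61 (adjusted p = 0.321). TUP1, a general corepressor, differed by 0.17 (adjusted p = 0.314), and its partner CYC8, tested only with missing values allowed, by -0.20 (adjusted p = 0.652). MGA2, the homologue of SPT23, differed by 0.00 (SE 0.10, adjusted p = 0.998). ROX1, itself a target of Hap1, differed by -0.19 with an SE of 0.38 (adjusted p = 0.837). The subunits of the other heme-dependent activator differed by 0.19 for HAP2, -0.01 for HAP3 and 0.14 for HAP5, with adjusted p between 0.475 and 0.983, and HAP4, its regulatory subunit, by 0.00 with an SE of 0.43 (adjusted p = 0.999).

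In wider gene groups few or no members passed. Over all 5161 genes and probes tested the median difference was 0.01, 41 (0.794%) were lower at an adjusted p of 0.05, and at an unadjusted p under 0.05 there were 428 higher and 406 lower. Of 53 mitochondrial ribosomal proteins 50 had the lower mean in the high group, with a median of -0.22, and 3 fell at an adjusted p of 0.05 and 0 at 0.01 (24 at an unadjusted p under 0.05). Of 109 cytosolic ribosomal proteins 104 had the higher mean, with a median of 0.22 and 0 called at either limit (5 at an unadjusted p under 0.05). The seripauperins, a family of cell wall proteins with near-identical members that a probe may not tell apart, had the lower mean in 18 of 20 genes, with 2 lower at 0.05 and a median of -0.59. In the respiratory chain 0 of 19 nuclear genes passed either limit in limma (2 at an unadjusted p under 0.05).

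On the right arm of chromosome 12 the share of genes with an unadjusted p under 0.05 was greatest close to HAP1. Among the 24 tested genes whose systematic number lies within 20 of HAP1, 13 passed that limit (54.2%), 11 higher and 2 lower. From 21 to 60 it was 13 of 53 genes (24.5%), farther away 41 of 231 (17.7%), and outside the arm 677 of 3989 (17%). The genes counted outside the arm included 49 of the left arm of chromosome 12, of which 10 passed that limit (20.4%). Of these 49, 4 passed an adjusted p of 0.05, and 1, ISA1, passed 0.01. No test of these shares was made, since neighbouring genes are inherited together and are not independent. After adjustment 7 genes of the arm passed 0.05 (2.27%), and 4 of them, RED1, PIG1, SMD2 and LIP2, were within 20 of HAP1. APS1, ECM19 and FMP27 were the 3 farther away, at 0.51, -0.44 and 0.51.

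PIG1, a likely targeting subunit of the phosphatase that acts on glycogen synthase, lies 21 genes from HAP1. It ran from 6.49 to 8.04 with a median of 7.58 in the high group and from 6.59 to 7.19 with a median of 6.77 in the low group. 12 of the 15 high segregants exceeded every low one. 21c and 22d, at 6.69 and 6.99, lay among the low values, and 19c, at 6.49, lay below all of them. The rise was 0.67 (SE 0.12, adjusted p = 0.00391). SMD2, a core protein of the spliceosome, lies 23 genes from HAP1 and rose by 0.29 (SE 0.06, adjusted p = 0.00632), although 6 of the 15 low segregants lay below the limit of background. RED1, a protein of meiotic chromosome axes 10 genes away, rose by 0.68 at 0.05 (SE 0.15, adjusted p = 0.0216). LIP2, a lipoyl transferase 17 genes away on the other side, fell by 0.47 (SE 0.12, adjusted p = 0.0414).

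Genes with a missing value on any of the 30 arrays were left out of these counts. When missing values were allowed, 6244 genes and probes were tested and 23 were called, the 19 above and 4 more, which were picked once their values were known. NEJ1, a factor of DNA end joining and the neighbour of PDR8, ran from 5.92 to 7.64 with a median of 7.11 in 15 high segregants and from 6.04 to 6.50 with a median of 6.29 in 14 low ones, a rise of 0.82 (SE 0.12, adjusted p = 0.000155). OM14, an outer membrane protein of mitochondria, rose by 1.63 (SE 0.31, adjusted p = 0.0058), and IDP2, the cytosolic isocitrate dehydrogenase on the same arm as HAP1, by 0.62 (SE 0.12, adjusted p = 0.00617). CAT5, which acts in ubiquinone synthesis, fell by 0.56 (SE 0.11, adjusted p = 0.00652).

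**Figure D4:**
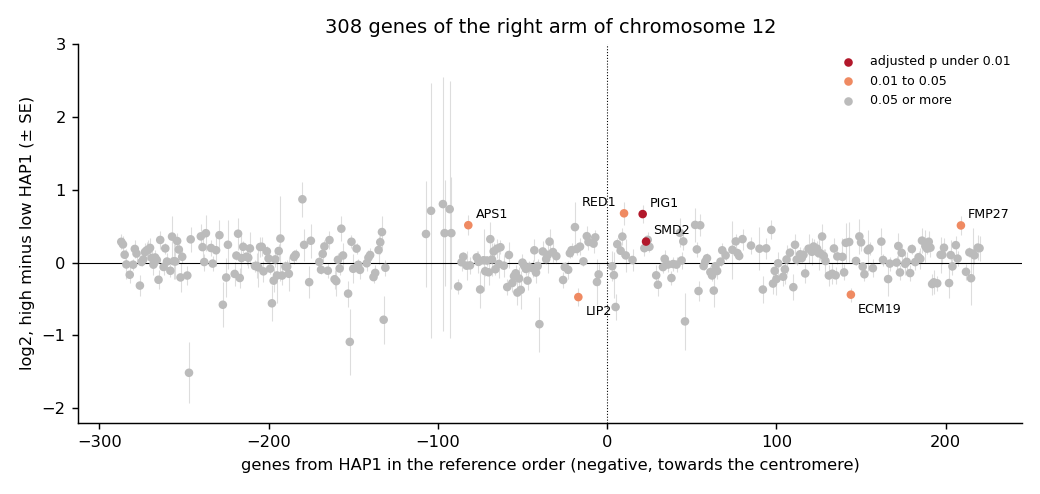
Log2 difference between the HAP1 groups (vertical axis, ± SE) of the 308 tested genes of the right arm of chromosome 12, by their place in the reference gene order counted from HAP1 (horizontal axis). PIG1 and SMD2 passed an adjusted p of 0.01, and RED1, LIP2, APS1, ECM19 and FMP27 passed 0.05.

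The 14 intermediate segregants were not used to choose or to test the 19 genes. With HAP1 as a covariate over the 14 alone, limma called 0 genes (122 at an unadjusted p under 0.05), and 10 of the 19 kept their sign (52.6%), beside 45.6% of all genes tested. For QDR2 values ran from 6.51 to 11.18, and 5 of the 14 exceeded every low segregant. Of these, 28b, 20a and 2a had 11.15, 11.18 and 9.72, and the same 3 segregants had LSB6 at 8.03, 7.47 and 7.73, in the range of the high group. Their A_06_P5069 values of 5.59, 5.59 and 5.41 lay near or below the lower end of the high group and under the limit of background. 28b, 20a and 2a were also the 3 intermediate segregants with the raised chromosome 16 arm, whose mean level was 9.35, 9.23 and 9.33 in them, and its part in these values was not tested. Segregant 6b had QDR2 at 10.42 and PIG1 at 8.19, above the high group in PIG1, but LSB6 at 6.57 and A_06_P5069 at 7.59, in the range of the low group. Conversely 21c, with HAP1 at 12.39 in the high group, had QDR2 at 6.60, LSB6 at 6.91, HMG1 at 7.06, SNU114 at 7.00 and PIG1 at 6.69, values within the low group for each. The groups of HAP1 level thus were not groups of uniform level for the genes that differed between them. These segregants were picked for description from the values themselves.

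**Figure D5:**
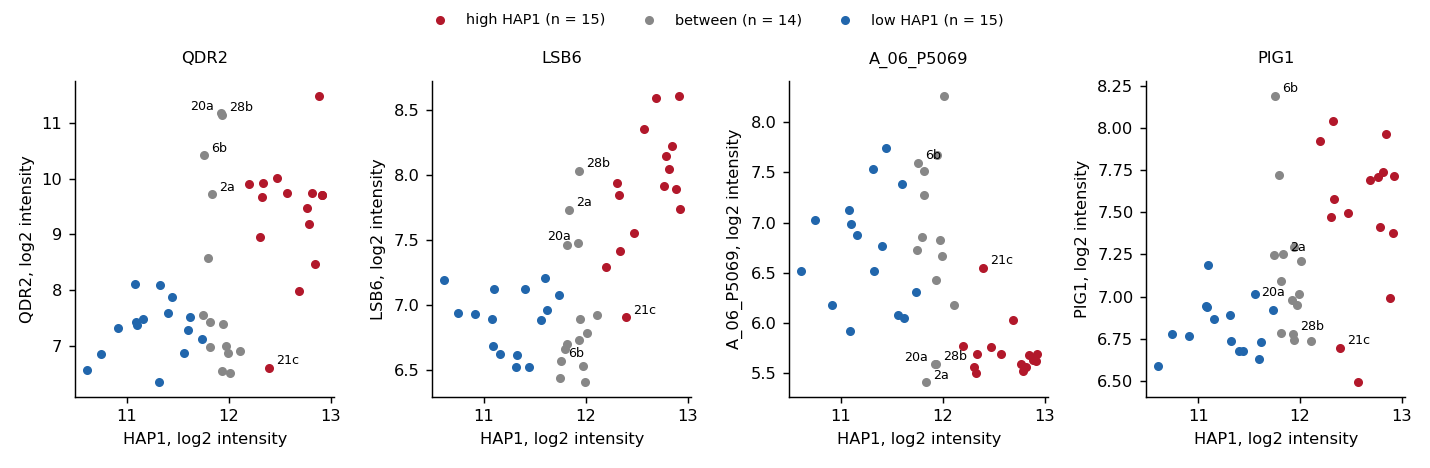
Log2 intensity of QDR2, LSB6, probe A_06_P5069 and PIG1 (vertical axes) against HAP1 (horizontal axes), 1 point for each of the 44 segregants, coloured by group, with 5 segregants named. 28b, 20a and 2a lie with the high group for QDR2 and LSB6 and at or below its lower values for A_06_P5069, 6b lies with it for QDR2 and PIG1 only, and 21c lies with the low group in all 4.

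The parents gave a comparison that the ranking did not use. 1503 of 5969 genes and probes were called between S288C and 59A at an adjusted p of 0.01 with a log2 difference above 0.7 (25.2%), 741 higher (12.4%) and 762 lower (12.8%) in S288C. All 19 genes and probes called in the segregants had the same sign in S288C against 59A, beside 68.2% of the 5017 genes measured in both comparisons, and 12 of the 19 were called in the parents (63.2%), beside 25.2%. At an adjusted p of 0.05, 90 of 91 had the same sign. The sizes differed between genes. QDR2 differed by 2.05 between the groups and by 1.39 between the parents, whereas ERG9 differed by -0.73 and -1.44, and HEM13 by -1.23 and -3.00.

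The study drew a list of genes linked to a region of chromosome 12 from these same samples, and the list is therefore not independent evidence of its direction. Of its 20 tested members 7 were higher and 1 lower at an adjusted p of 0.01 in the HAP1 groups, and 10 were higher and 4 lower at 0.05, with a median difference of 0.42. Over all genes tested 0.271% were higher and 0.0969% lower at 0.01. With slide as a block 4 members were higher and 0 lower at 0.01, the same counts were found with the chromosome 16 arm as a covariate, and among the segregants without the raised arm there were 1 and 0. LSB6, WAR1, QDR2, SNU114, HMG1, UTR5 and SMD2 rose and TIM13 fell. ERG8, mevalonate phosphate kinase, and TPO4, a polyamine exporter, were members that did not pass, at 0.76 (adjusted p = 0.188) and 0.45 (adjusted p = 0.342).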

How the data were processed

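The deposited log2 values are spot medians read with GenePix from one-colour Cy3 Agilent arrays, which the authors quantile normalized over their set with limma under R 2.13.1 and for which they give 5.3 as background and 16 as saturation. Quantile normalization fixes the distribution of each array, which hides any shift that all transcripts share. Of 6245 probes 5197 carried 1 gene name. Array number limits the precision, and column medians lay between 8.243 and 8.276. The build of the probes is not given in the sources used here, so the reference table served for names and gene order only.

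The 15 highest and 15 lowest of 44 segregants by HAP1 were set against each other in limma 3.58.1 (R 4.3.3, moderated t, Benjamini-Hochberg over all 5161 genes and probes with values on all 30 arrays, HAP1 left out, no minimum difference, call at an adjusted p of 0.01). Differences are high minus low and SE values come from the moderated fit. 1083 genes and probes lacked a value, 891 of them on the arrays of 9c or 13b. P-values measure the spread between segregants, each a different genotype grown as 1 culture. The study took some segregants from the same ascus, and the fit treated all 30 as independent. The parents were compared in the same way, 2 extracts against 2 with technical arrays averaged. The extract numbers give only 2 pairs, whose deviations correlated at 0.437. Named genes were those called with the largest differences or smallest adjusted p, those near HAP1 and up to 4 of each list, with all oxygen and heme regulators and all genes of a list tested with a replaced PDR8 allele. Exceptions are stated. The members and lists were chosen with earlier results of these data known. Other settings were slide as a block, other group sizes, HAP1 as a covariate, filters at 6.3 (1 log2 unit above background) and covariates for the chromosome 16 arm and mating type. The test was tried on simulated data. Figures were drawn with matplotlib 3.10.9 under Python 3.11.15.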

Additional observations from a re-analysis of the deposited data

How the results depend on the processing

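The direction of all 19 calls held in every setting but 1, while their number did not. Most settings refitted mainly the segregants on which the 19 were chosen. The limit of 0.05 and the required difference of 0.7 changed the call and not the fit, so no sign could turn there. Against 15 genes outside the arm and 2 on it, 4 and 1 were called with slide as a block, 6 and 0 with the chromosome 16 arm as a covariate, 6 and 1 without 9c and 13b, 14 and 2 without 19c and 20a (13 of the 19 among all 19 called), 9 and 0 with a difference above 0.7 required, and 74 and 7 at an adjusted p of 0.05. Of 3 settings added after the data were seen, leaving out slide 6 gave 7 and 1, slide with the chromosome 16 and mating covariates 3 and 1, and the segregants without the raised arm 1 and 0. The 10 highest against the 10 lowest gave 56 outside the arm, and HAP1 as a covariate over 44 segregants 95 and 9. The 22 highest against the 22 lowest gave 0 and 0 in limma (607 at an unadjusted p under 0.05, the 19 in the same direction), and HAP1 as a covariate over the 14 intermediate segregants also 0 and 0 (122). A filter on probes above background left 1 on the arm, and missing values allowed gave 4.

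Over those 14 segregants, whose HAP1 values span little, 9 slopes scaled to the difference of the groups turned sign, each with an adjusted p of 0.998: 2.87 for A_06_P4862, -7.235 for QDR2, -2.99 for PIG1, -1.74 for LST4, -1.20 for SMD2, -0.71 for YME2, 3.58 for ERG12, -2.07 for GUT2 and 2.32 for ERG9. The cause was not tested. For the parents a replicate block on the extract number gave 1528 calls, and leaving out 1 extract from 1407 to 1631.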
